A study of Mus musculus with 8 samples.

Results

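Genes of mitochondrial ribosomal proteins were taken from the deposited table of P14 CD8 T cells as every entry whose symbol is Mrps or Mrpl followed by a number and at most 1 letter. This gave 78 of the 24303 genes, of which 26 encode proteins of the small subunit, 51 encode proteins of the large subunit, and 1, *Mrps36*, is named like the others but is now known as a component of the 2-oxoglutarate dehydrogenase complex. The rule reads symbols alone, although the family was picked for study with earlier results of these data known. The RNA-Seq libraries came from CD8 T cells of the spleens of uninfected male or female P14 mice, at least 8 weeks old, whose transgenic T cell receptor recognizes the GP33 peptide of LCMV. All cells were activated on plates coated with anti-CD3 and anti-CD28 until day 2, pooled, and then kept in medium with IL-2 and IL-15. Acute-2d cells received no peptide after day 2, Acute-7d cells received GP33 until day 7 and then rested, and T_Dysf cells received GP33 until day 19 together with TGF-β1 from day 7; these 3 conditions were collected on day 19 as sorted viable CD8 T cells. Effector cells were collected on day 7, and the labels name no stimulation arm for them. Each of the 4 conditions had 2 libraries, named replicate 1 and 2 here, which the study calls biological replicates. The labels do not tie them to separate mice or cultures and the cells were pooled on day 2, so the p-values measure the spread between these libraries, which may be technical in part. As a model the system is limited to cultured cells of 1 receptor specificity, outside a host.

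The mitochondrial ribosome translates the few proteins that mitochondrial DNA encodes, all of them subunits of the respiratory chain or of ATP synthase. Its ribosomal RNAs come from mitochondrial DNA, whereas its proteins are encoded in the nucleus, made in the cytosol and imported. The small subunit binds and decodes the messenger, and the large subunit holds the peptidyl transferase centre, the stalk that recruits translation factors, the central protuberance that contacts the small subunit, and the exit tunnel that opens at the inner membrane. In T cells, activation is known for a large rise in mitochondrial mass and in mitochondrial translation before the first division.

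The summed level of these genes followed the condition, highest in Effector, intermediate in T_Dysf and lowest in both rested conditions. Values are normalized counts, that is, estimated reads per gene divided by the size factor of the library. Depth ran from 19381799 to 24856512 reads on genes per library. The 78 genes together made up 0.309% and 0.318% of the total in the Effector libraries, 0.220% and 0.230% in those of Acute-2d, 0.207% and 0.224% in those of Acute-7d, and 0.247% and 0.246% in those of T_Dysf. The shares of the 4 conditions did not overlap except between Acute-2d and Acute-7d. As means these were 0.313% ± 0.007, 0.225% ± 0.007, 0.215% ± 0.012 and 0.246% ± 0.001 (SD, n = 2). In bulk libraries, fewer cells of a kind and less RNA of these genes per cell cannot be told apart.

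**Figure D1:**
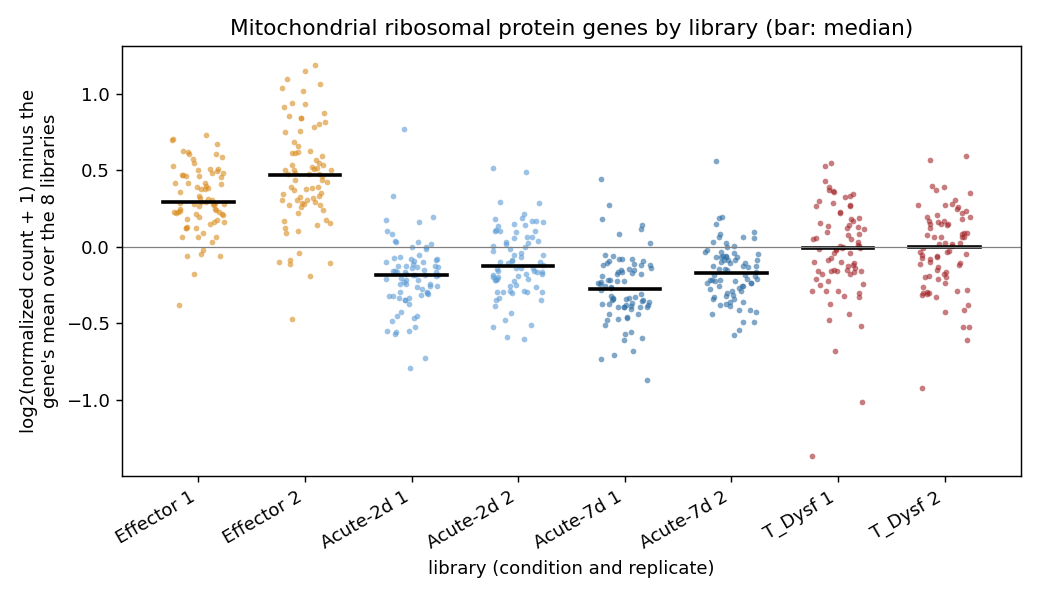
Each point is 1 of the 78 genes in 1 library; the y axis is log2(normalized count + 1) minus the mean of that gene over the 8 libraries, the x axis gives condition and replicate, and the bar is the median. The medians are 0.29 and 0.47 for Effector, -0.18 and -0.13 for Acute-2d, -0.28 and -0.17 for Acute-7d, and near 0 for both T_Dysf libraries.

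The order of the library medians in the plot of deviations was not that of every gene. Effector replicate 2 stood above replicate 1, by a median of 0.14 on the log2 scale over the 78 genes. The highest mean was in Effector for 64 genes, in T_Dysf for 7, in Acute-2d for 6 and in Acute-7d for 1. The lowest mean was in Acute-7d for 44, in T_Dysf for 17, in Acute-2d for 15 and in Effector for 2. Effector came first and T_Dysf second for 44 genes, of which 33 had Acute-7d last. T_Dysf lay between Effector and Acute-7d for 50 genes, above both for 8 and below both for 20. By the moderated F-test of limma with Benjamini-Hochberg adjustment over all genes (called means an adjusted p under 0.05), 41 of the 78 genes (52.6%) differed among the 4 conditions, against 20.2% of all 24303 genes and 34.4% of the 12028 genes with a mean of at least 50. All 78 genes have a mean of at least 50, so the second share is the closer background. Without 1 library the count ran from 6 (without T_Dysf replicate 1) to 30 (without Effector replicate 1), with 8 without Acute-7d replicate 1, 10 and 17 without Acute-2d replicate 1 and 2, 14 without Acute-7d replicate 2, 17 without T_Dysf replicate 2 and 20 without Effector replicate 2.

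Cell cycle genes moved with the same libraries. Over 12 S phase markers, the median deviation from the mean over libraries was 1.05 and 1.88 for Effector, -0.69 and -0.75 for Acute-2d, -1.12 and -0.55 for Acute-7d, and 0.12 and 0.12 for T_Dysf on the log2 scale. Of the 12, 11 were called higher in Effector than in Acute-7d (91.7%, median 2.29). Between T_Dysf and Acute-7d 0 were called by limma, where all 12 fold changes were above 0 (median 0.93) and 6 had an unadjusted p under 0.05. Against Effector, T_Dysf had all 12 below 0 (median -1.28), with 2 called lower (16.7%). The shares called among genes with a mean of at least 50 were 26.3%, 15.3% and 26.3% in these 3 comparisons. The libraries thus stood in the same order as for the mitochondrial ribosomal genes, Effector, T_Dysf and the rested cells, and the part of proliferation in the result was not tested.

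None of these genes was near the limit of detection. Their means over the 8 libraries ran from 158 for *Mrpl23* to 2220.3 for *Mrpl9*, with a median of 604 normalized counts. Per kilobase of transcript, the scale on which genes can be compared, *Mrps21* (2170.1), *Mrpl33* (2084) and *Mrpl30* (2076) were the highest, and *Mrpl47* (67.2), *Mrpl1* (75.2) and *Mrpl35* (94.6) the lowest, with a median of 421 normalized counts per kilobase. *Mrps21* belongs to the small subunit and *Mrpl33* and *Mrpl30* to the large subunit. Most of the proteins are held in the ribosome in single copies, whereas *Mrpl12* forms the stalk in several copies. The message of *Mrpl12* had 942 normalized counts per kilobase. The lengths are medians over the protein-coding transcripts of GENCODE vM21, so a long or short rare isoform can move the value of a gene.

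The genes lie on 17 chromosomes, with 11 on chromosome 11. A feature they share is that 33 of the 78 (42.3%) start within 1000 bases of a protein-coding gene that runs the other way, against 18.1% of 10335 protein-coding genes with a mean of at least 50 in RefSeq for GRCm38.p6. Of the 78, 25 overlap another annotated gene. Whether reads were assigned by strand is not given in the sources used here, so reads in those overlaps cannot be told apart; they include *Mrpl18*, *Mrpl19*, *Mrpl24*, *Mrpl27*, *Mrpl33*, *Mrpl43*, *Mrps2*, *Mrps6*, *Mrps7*, *Mrps9*, *Mrps18a*, *Mrps18b*, *Mrps23*, *Mrps27* and *Mrps28*.

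Promoter sequence was compared because many of these genes moved together between conditions. RefSeq promoters (GRCm38.p6, 250 bases before to 50 after the start) were found for 69 of the 78; *Mrpl4*, *Mrpl13*, *Mrpl15*, *Mrpl19*, *Mrpl38*, *Mrpl54*, *Mrps28*, *Mrps34* and *Mrps35* had none in the table. Motifs were searched on both strands. CCGGAAG, the core of sites for ETS factors such as GABPA, was in 26 promoters (37.7%), against 22.7% of 8262 other protein-coding genes with a mean of at least 50 and 9.93% of all 27025 promoters. The core of NRF1 sites, GCGC on either side of 2 bases of any kind, was in 14 (20.3%, against 16.5% and 7.00%). AAGATGGCG, a YY1 site, was in 8 (11.6%, against 4.10% and 1.64%). The E-box CACGTG, bound by MYC and other factors, was in 5 (7.25%, against 12.3% and 8.09%). At least 1 of the first 3 was in 42 promoters (60.9%, against 37.9% and 16.6%). These matches are descriptions of letters, not of binding, and no test was made.

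The 120 bases before the start are shown for 5 genes that hold a motif there. They are 1 that was highest in T_Dysf (*Mrpl52*), 2 that were high in Effector alone (*Mrps22* and *Mrpl12*), and 2 that were high in both (*Mrps21* and *Mrps11*). Capitals mark the ETS motif in *Mrpl52* and *Mrps22*, the NRF1 motif in *Mrps21* and *Mrpl12*, and the YY1 motif in *Mrps11*. Each sequence runs 5′ to 3′ along the gene.
*Mrpl52* (chr14:54426789-54426908, plus strand): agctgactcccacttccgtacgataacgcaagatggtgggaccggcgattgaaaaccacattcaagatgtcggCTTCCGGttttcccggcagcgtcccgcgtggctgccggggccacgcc
*Mrps22* (chr9:98601680-98601799, minus strand): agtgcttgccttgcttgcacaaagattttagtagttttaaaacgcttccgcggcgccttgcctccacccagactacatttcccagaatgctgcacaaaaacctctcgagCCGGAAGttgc
*Mrps21* (chr3:95871515-95871634, minus strand): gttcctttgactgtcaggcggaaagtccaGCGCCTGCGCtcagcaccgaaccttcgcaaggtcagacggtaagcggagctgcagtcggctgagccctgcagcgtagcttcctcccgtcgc
*Mrpl12* (chr11:120484517-120484636, plus strand): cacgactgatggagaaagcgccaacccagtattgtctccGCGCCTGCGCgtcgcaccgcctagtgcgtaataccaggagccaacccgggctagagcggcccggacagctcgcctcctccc
*Mrps11* (chr7:78783011-78783130, plus strand): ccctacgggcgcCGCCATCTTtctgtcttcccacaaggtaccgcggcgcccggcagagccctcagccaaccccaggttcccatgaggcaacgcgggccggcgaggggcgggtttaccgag
The motif on the strand of the gene begins 11 bases before the start in *Mrps22*, 91 in *Mrps21* and 81 in *Mrpl12*. In the other 2 genes it lies on the other strand. Counted along the gene, it spans 47 to 41 bases before the start in *Mrpl52* and 108 to 100 in *Mrps11*. *Mrpl52* and *Mrps22* hold the same ETS letters and differ in their order of conditions, as described below for each. Other genes described below, *Mrpl10*, *Mrpl11*, *Mrpl16*, *Mrpl23* and *Mrpl24*, hold no ETS, NRF1 or YY1 motif in the promoter searched.

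T_Dysf and Acute-7d cells were compared to ask how cells under repeated stimulation with TGF-β1 past day 7 differed from rested cells of the same day. No library had GP33 until day 19 without TGF-β1, so peptide and TGF-β1 cannot be told apart. In T_Dysf, 13 of the 78 genes were higher and 1 was lower, with a median log2 fold change of 0.18 over the 78 against 0.02 over all genes with a mean of at least 50. The 14 calls are 17.9% of the 78, against 9.21% of all genes (4.79% higher and 4.42% lower) and 15.3% of those with a mean of at least 50. So the share called was close to its background. Of the 78 fold changes 57 were above 0 (47 under quantile normalization), and 33 had an unadjusted p under 0.05 by limma. Replicates of 1 condition could lean as far: 59 of the 78 genes were higher in replicate 2 of Effector than in replicate 1. For Acute-7d this number was 57, for Acute-2d 52 and for T_Dysf 42. The 1 gene that also passed 2-fold was the lower one, *Mrpl23*, against 5.57% of all genes.

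*Mrps23*, a protein of the small subunit found only in mitochondrial ribosomes, held 2059.7 and 1985 in the Effector libraries, 1254 and 1280.3 in those of Acute-2d, 1131 and 1234 in those of Acute-7d and 2048 and 1894 in those of T_Dysf. The T_Dysf libraries lay with the Effector libraries, and both stood clear of all 4 rested libraries. Its log2 fold change against Acute-7d was 0.74 ± 0.065 (SE, adjusted p = 0.00767). *Mrpl10*, at the base of the stalk, held 1202 and 1172 in the Effector libraries, 875 and 930.4 in those of Acute-2d, 858 and 861 in those of Acute-7d and 1249 and 1251 in those of T_Dysf. T_Dysf was the highest condition there, next to Effector and with no overlap with it. The log2 fold change of *Mrpl10* against Acute-7d was 0.54 ± 0.044 (SE, adjusted p = 0.00631). *Mrpl58*, a peptidyl-tRNA hydrolase of the large subunit that can release stalled chains, held 1306 and 1232 in the Effector libraries, 878 and 906 in those of Acute-2d, 890.3 and 903 in those of Acute-7d and 1231 and 1207 in those of T_Dysf. Its T_Dysf and Acute-7d libraries did not overlap, and its log2 fold change was 0.44 ± 0.045 (SE, adjusted p = 0.0105).

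The largest differences upward were smaller than 2-fold and came with a wider spread. *Mrpl54* of the large subunit gave a log2 fold change of 0.85 ± 0.13 (SE, adjusted p = 0.0247), and *Mrps16* of the small subunit gave 0.85 ± 0.16 (SE, adjusted p = 0.0434). *Mrps11*, of the platform of the small subunit, gave 0.81 ± 0.14 (SE, adjusted p = 0.0371), and *Mrpl13* of the large subunit gave 0.81 ± 0.12 (SE, adjusted p = 0.0256). In each of these 4 genes both T_Dysf libraries were above both Acute-7d libraries; *Mrpl13*, for example, had 830.2 and 779.7 normalized counts against 413 and 512. The other genes called higher were *Mrps7*, *Mrps21*, *Mrpl32*, *Mrpl39*, *Mrpl43* and *Mrpl52*. Of the small subunit, 5 of 26 genes were higher and 0 lower, with a median of 0.10; of the large subunit, 8 of 51 were higher and 1 lower, with a median of 0.33. Rescaled to equal 75th percentiles, the split was 11 higher and 5 lower, and quantile normalization gave 13 and 4, against 13 and 1. Without 1 library the count of 14 fell to 2 (Acute-7d replicate 1), 4 (Acute-7d replicate 2), 3 (T_Dysf replicate 1) and 5 (T_Dysf replicate 2); all 14 kept their direction, and *Mrpl10* and *Mrps23* were called each time.

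*Mrpl23*, a protein of the rim of the exit tunnel, went the other way. It held 155 and 132 in the Effector libraries, 242 and 199.9 in those of Acute-2d, 194 and 211 in those of Acute-7d and 54.4 and 74.4 in those of T_Dysf. Both T_Dysf libraries were below all 6 others. The log2 fold change was -1.65 ± 0.20 (SE, adjusted p = 0.0161) against Acute-7d, -1.77 ± 0.20 (SE, adjusted p = 0.0107) against Acute-2d and -1.16 ± 0.20 (SE, adjusted p = 0.026) against Effector. The table also lists *Mrpl23-ps1*, a pseudogene entry named for it, which held more reads than the gene: 931 and 977 in the Effector libraries, 929.7 and 1124 in those of Acute-2d, 874 and 958 in those of Acute-7d and 398 and 514 in those of T_Dysf. That entry was also lowest in T_Dysf. It took between 79.3% and 88.1% of the counts of the pair, so how the reads divide between them is uncertain. With both entries summed, the log2 fold change of T_Dysf against Acute-7d was -1.11 ± 0.14 (SE; adjusted p = 0.018). Pseudogene entries took a smaller part of the pair or set for *Mrpl27* (29.4% to 42.6%), *Mrps36* (31.2% to 44.4%) and *Mrpl48* (17.0% to 24.5%).

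**Figure D2:**
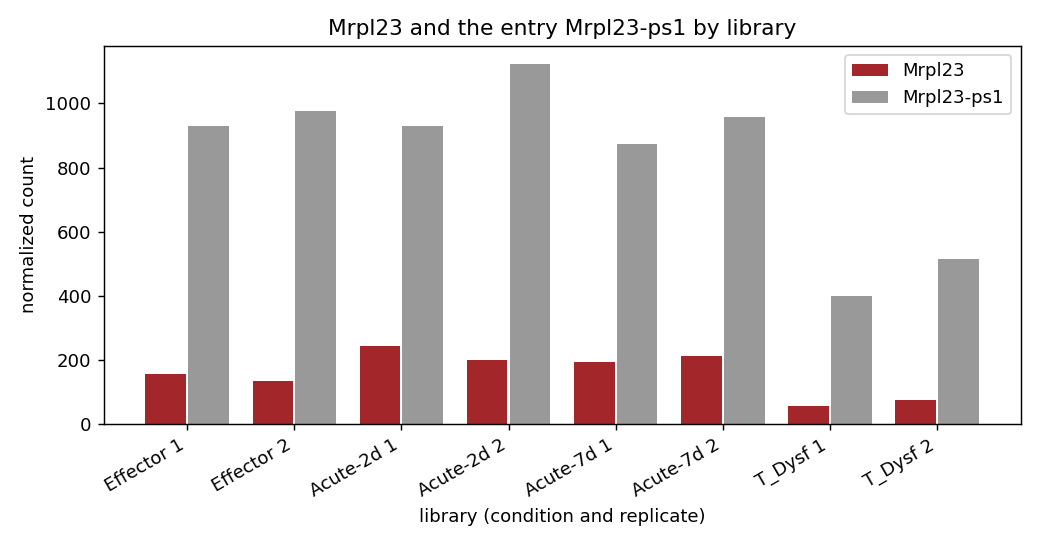
Bars give the normalized count of *Mrpl23* and of the entry *Mrpl23-ps1* in each of the 8 libraries, named by condition and replicate. Both are lowest in the 2 T_Dysf libraries, where *Mrpl23* has 54.4 and 74.4 normalized counts.

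Against Acute-2d, cells stimulated only until day 2, T_Dysf had 9 genes higher and 4 lower, with a median log2 fold change of 0.15. The 13 calls are 16.7% of the 78, against 11.9% of all genes (5.85% higher and 6.01% lower) and 19.5% of those with a mean of at least 50, so the share was not above its background. *Mrpl52*, a large subunit protein of the central protuberance, held 622 and 511 in the Effector libraries, 416 and 458 in those of Acute-2d, 542 and 543 in those of Acute-7d and 854 and 881 in those of T_Dysf. T_Dysf was above every other library for this gene. Its log2 fold change was 0.99 ± 0.11 (SE, adjusted p = 0.00966) against Acute-2d, 0.67 ± 0.11 (SE, adjusted p = 0.0295) against Acute-7d and 0.62 ± 0.11 (SE, adjusted p = 0.0257) against Effector. *Mrps21* was higher by 0.73 ± 0.14 (SE, adjusted p = 0.038), *Mrps23* by 0.64 ± 0.065 (SE, adjusted p = 0.00833), *Mrpl10* by 0.47 ± 0.044 (SE, adjusted p = 0.00682) and *Mrpl58* by 0.45 ± 0.045 (SE, adjusted p = 0.00797) on the log2 scale. The genes called lower were *Mrpl23*, *Mrpl38*, *Mrpl30* and *Mrps34*; *Mrpl38*, which joins the central protuberance, had a log2 fold change of -0.71 ± 0.13 (SE, adjusted p = 0.034). Rescaled to equal 75th percentiles the split was 7 higher and 6 lower, and quantile normalization gave 8 and 7. Without 1 library the count was 3 (Acute-2d replicate 1 or T_Dysf replicate 1) or 7 (Acute-2d replicate 2 or T_Dysf replicate 2), and *Mrpl10* was called each time.

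Between T_Dysf and Effector the fold changes were mostly negative, below 0 for 69 of the 78, and the share of genes called was at its background. In T_Dysf 19 were lower and 2 higher, a call for 26.9% of the 78 against 15.6% of all genes (8.14% higher and 7.44% lower) and 26.3% of those with a mean of at least 50, and the median log2 fold change was -0.36. Lower by 2-fold or more were 7 genes (9.22% of all genes passed this in either direction), *Mrpl12*, *Mrpl18*, *Mrpl23*, *Mrps18b*, *Mrps22*, *Mrps27* and *Mrps28*. *Mrps28*, a small subunit protein related to bacterial S1, held 314 and 397 in the Effector libraries, 172 and 184 in those of Acute-2d, 177 and 202 in those of Acute-7d and 93.3 and 124 in those of T_Dysf. Effector was the highest condition and T_Dysf the lowest, with no overlap. The log2 fold change was -1.71 ± 0.19 (SE, adjusted p = 0.0102). *Mrps27*, a protein of the pentatricopeptide repeat family, held 455 and 564 in the Effector libraries, 236 and 298 in those of Acute-2d, 234 and 286 in those of Acute-7d and 211 and 221 in those of T_Dysf. Both T_Dysf libraries were below all others, and the log2 fold change against Effector was -1.23 ± 0.18 (SE, adjusted p = 0.0172).

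In *Mrps22* and *Mrpl12* the level was high in Effector and the other conditions lay close together. *Mrps22*, whose mutation causes mitochondrial disease in humans, held 324 and 443 in the Effector libraries, 134 and 176 in those of Acute-2d, 176 and 141 in those of Acute-7d and 183 and 160.1 in those of T_Dysf. Its log2 fold change of T_Dysf against Effector was -1.14 ± 0.23 (SE, adjusted p = 0.0373). *Mrpl12*, the stalk protein that also binds the mitochondrial RNA polymerase, held 1767 and 2257 in the Effector libraries, 984 and 1047 in those of Acute-2d, 914 and 1014 in those of Acute-7d and 961 and 978 in those of T_Dysf. The 6 libraries of day 19 lay between 914 and 1047, and the log2 fold change of T_Dysf against Effector was -1.04 ± 0.13 (SE, adjusted p = 0.0124). *Mrpl18*, of the central protuberance, held 1607 and 2113 in the Effector libraries, 733 and 805 in those of Acute-2d, 691 and 758 in those of Acute-7d and 851 and 991 in those of T_Dysf, with T_Dysf above all 4 rested libraries and below Effector. Its log2 fold change was -1.004 ± 0.16 (SE, adjusted p = 0.0208). The 2 genes called higher in T_Dysf than in Effector were *Mrpl52*, described above, and *Mrpl24*, of the exit tunnel, with 0.47 ± 0.057 (SE, adjusted p = 0.0117). Without 1 library the count of 21 was 22 (Effector replicate 1), 8 (Effector replicate 2), 2 (T_Dysf replicate 1) and 7 (T_Dysf replicate 2), and *Mrps28* was called each time. With a term for the libraries whose names begin with RESUB it was 0 by limma, with 30 at an unadjusted p under 0.05.

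**Figure D3:**
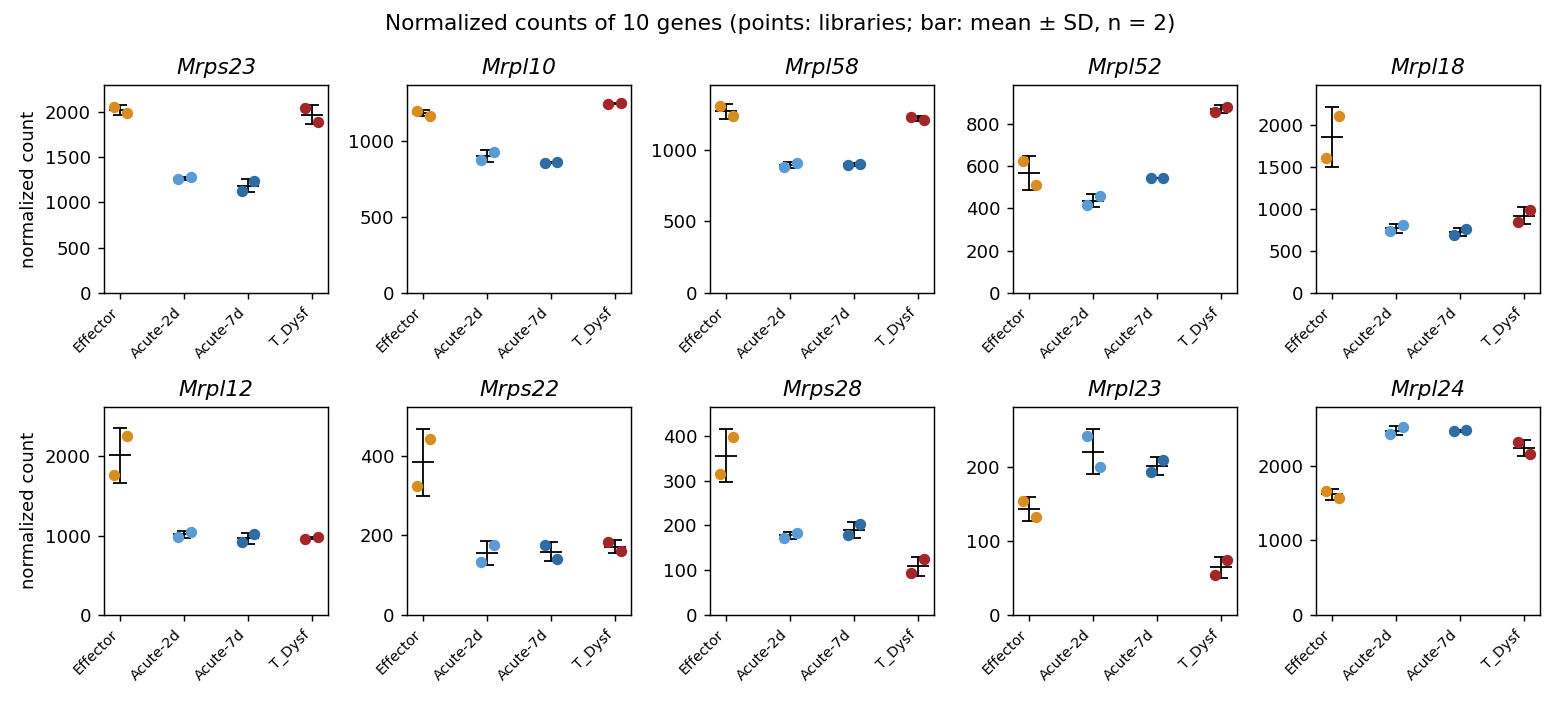
Normalized counts of 10 genes (y axis, starting at 0) in the 4 conditions (x axis). Points are the 2 libraries of a condition and the bar is their mean ± SD; *Mrps23*, *Mrpl10* and *Mrpl58* are high in Effector and T_Dysf, *Mrpl52* is highest in T_Dysf, *Mrpl12* and *Mrps22* are high in Effector alone, *Mrpl18* is highest in Effector with T_Dysf next, *Mrps28* and *Mrpl23* are lowest in T_Dysf, and *Mrpl24* is lowest in Effector.

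The most calls were made between Effector cells of day 7 and the rested cells. In every comparison with Effector, condition cannot be told apart from the day of collection, day 7 against day 19. Against Acute-7d, 44 genes were higher in Effector and 1 was lower, 57.7% of the 78 against 14.9% of all genes (7.7% higher and 7.16% lower) and 26.3% of those with a mean of at least 50. The median log2 fold change was 0.59. Higher by 2-fold or more were 13 (8.06% of all genes passed this in either direction), *Mrpl12*, *Mrpl13*, *Mrpl16*, *Mrpl18*, *Mrpl20*, *Mrpl27*, *Mrpl28*, *Mrpl35*, *Mrpl51*, *Mrpl54*, *Mrps6*, *Mrps11* and *Mrps22*. Of the small subunit 14 of 26 were higher and of the large subunit 30 of 51, both with a median of 0.59. Against Acute-2d, 39 were higher and 1 lower (51.3% of the 78, against 15.7% of all genes, 7.94% higher and 7.79% lower, and 27.7% of those with a mean of at least 50), with a median of 0.55. Of these, 8 were higher by 2-fold or more, against 8.78% of all genes in either direction. In 69 of the 78 genes both Effector libraries were above both Acute-7d libraries, and in 64 above both Acute-2d libraries, against 37.8% and 37.2% of genes with a mean of at least 50.

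*Mrpl20*, which binds the large ribosomal RNA, held 846 and 1263 in the Effector libraries, 377 and 368 in those of Acute-2d, 422 and 416 in those of Acute-7d and 587 and 584 in those of T_Dysf. Effector was highest, T_Dysf next and the rested conditions lowest, with no overlap between these 3 levels. The log2 fold change of Effector was 1.47 ± 0.19 (SE, adjusted p = 0.0158) against Acute-2d and 1.30 ± 0.19 (SE, adjusted p = 0.0212) against Acute-7d. *Mrpl51* held 928 and 1181 in the Effector libraries, 336 and 458 in those of Acute-2d, 356 and 473 in those of Acute-7d and 699.9 and 661 in those of T_Dysf. It followed the same order, with a log2 fold change of 1.41 ± 0.23 (SE, adjusted p = 0.0234) against Acute-2d and 1.35 ± 0.23 (SE, adjusted p = 0.0271) against Acute-7d. *Mrpl16*, near the peptidyl transferase centre, gave 1.14 ± 0.22 (SE, adjusted p = 0.0336) against Acute-2d and 1.34 ± 0.22 (SE, adjusted p = 0.0261) against Acute-7d. In *Mrpl16*, as in *Mrpl12*, *Mrpl18* and *Mrps22*, Effector replicate 2 was above replicate 1.

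*Mrpl24* was the exception in both comparisons. It held 1669.9 and 1564 in the Effector libraries, 2430.3 and 2522 in those of Acute-2d, 2465 and 2479.5 in those of Acute-7d and 2318 and 2160.5 in those of T_Dysf. Both Effector libraries were below all 6 others, and the log2 fold change was -0.61 ± 0.057 (SE, adjusted p = 0.0118) against Acute-7d and -0.61 ± 0.057 (SE, adjusted p = 0.0103) against Acute-2d. *Mrpl24* overlaps *Rrnad1* in the annotation. Without 1 library the counts were 35 and 13 (Effector replicate 1 and 2) and 1 and 10 (Acute-7d replicate 1 and 2) against Acute-7d, where *Mrps23* was called each time, and 29 and 12 (Effector replicate 1 and 2) and 6 and 11 (Acute-2d replicate 1 and 2) against Acute-2d, where *Mrpl10*, *Mrpl11*, *Mrpl24* and *Mrpl58* were.

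Both Effector libraries and Acute-7d replicate 1 carry the library name prefix RESUB, whose meaning is not given in the sources used here, and the other 5 do not. Against Acute-7d replicate 1 alone, a library with the same prefix, Effector had a median log2 difference of 0.63 over the 78 genes, with 73 above 0. T_Dysf against Acute-7d replicate 2, both without the prefix, gave 0.14, with 53 above 0. With a term for the prefix, limma called 10 genes between Effector and Acute-7d (median 0.63), 0 between Effector and Acute-2d (median 0.62, with 48 at an unadjusted p under 0.05), 2 between T_Dysf and Acute-7d (median 0.14) and 7 between T_Dysf and Acute-2d (median 0.15). Acute-7d replicate 1 was below replicate 2 by a median of 0.10, in 57 of the 78 genes. Prefix and condition cannot be told apart for Effector against Acute-2d and T_Dysf without that 1 library.

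The 2 rested conditions, Acute-7d and Acute-2d, were not separated by calls. By limma 0 of the 78 genes were called, with 4 at an unadjusted p under 0.05; of all genes 0.169% were called (0.0782% higher and 0.0905% lower), and 0.0166% of those with a mean of at least 50. The median log2 fold change was -0.08, and single genes ran from -0.34 to 0.31, with 57 below 0 and 21 above. Of the 78, 49 overlapped between the conditions, 22 (28.2%) were lower in both Acute-7d libraries and 7 (8.97%) higher. The shares among genes with a mean of at least 50 were 19% and 18.6%. A difference smaller than the spread between 2 libraries would not be seen here, and the missing calls do not show equal levels.

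The structural parts of the ribosome did not move as blocks. Of the 3 stalk genes, *Mrpl10*, *Mrpl11* and *Mrpl12*, all were higher in Effector than in Acute-7d. They parted in T_Dysf. The log2 fold change of *Mrpl10* against Effector was 0.075 ± 0.044 (SE, adjusted p = 0.324), against -0.53 ± 0.077 (SE, adjusted p = 0.0168) for *Mrpl11* and -1.04 for *Mrpl12*, of which the latter 2 were called. The 6 genes of the exit ring were *Mrpl17*, *Mrpl22*, *Mrpl23*, *Mrpl24*, *Mrpl45* and *Mrpl47*. Between Effector and Acute-7d, 3 of them were higher (*Mrpl17*, *Mrpl22* and *Mrpl45*, with 0.60, 0.999 and 0.84 on the log2 scale) and *Mrpl24* was lower, while *Mrpl47* (0.77, adjusted p = 0.0576) and *Mrpl23* (-0.49, adjusted p = 0.187) were not called. Of genes with a mean of at least 50, 26.3% were called in that comparison. Of the 9 genes of the central protuberance, 6 were higher in Effector than in Acute-7d, 2 were higher in T_Dysf than in Acute-7d (*Mrpl52* and *Mrpl58*), and between T_Dysf and Effector 1 was higher (*Mrpl52*) and 2 lower (*Mrpl18* and *Mrpl38*). The backgrounds for these 3 comparisons are 26.3%, 15.3% and 26.3% of genes with a mean of at least 50, called in either direction.

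The 3 genes that descend from bacterial S18 were all higher in Effector than in Acute-7d, *Mrps18a* by 0.38 ± 0.08 (SE, adjusted p = 0.0428), *Mrps18b* by 0.71 ± 0.14 (SE, adjusted p = 0.0339) and *Mrps18c* by 0.72 ± 0.16 (SE, adjusted p = 0.0483) on the log2 scale. In that comparison 56.4% of the 78 genes were called higher. Of genes with a mean of at least 50, 26.3% were called in either direction. The 3 genes parted in T_Dysf. *Mrps18b* held 629 and 774 in the Effector libraries, 442 and 443 in those of Acute-2d, 392 and 459 in those of Acute-7d and 276 and 307 in those of T_Dysf. Both T_Dysf libraries were below all others, and the log2 fold change against Effector was -1.26 ± 0.14 (SE, adjusted p = 0.00939). For *Mrps18a* it was -0.32 ± 0.08 (SE, adjusted p = 0.0624) and for *Mrps18c* -0.37 ± 0.16 (SE, adjusted p = 0.2), neither called. *Mrps36*, the dehydrogenase component, was called in none of the 6 comparisons, with 0.50 (adjusted p = 0.0809) for Effector against Acute-7d.

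Genes with a bacterial homologue and those found only in mitochondrial ribosomes were counted apart. Between T_Dysf and Effector, 16 of 48 genes with a homologue were lower and 1 was higher (median -0.46), against 3 of 29 lower and 1 higher of the mitochondria-specific ones (median -0.23). The shares called were 35.4% and 13.8%, on either side of the 26.3% of genes with a mean of at least 50. Between Effector and Acute-7d the counts were 31 higher and 1 lower of 48 (median 0.60), and 13 higher and 0 lower of 29 (median 0.58), that is 66.7% and 44.8% against 26.3%. The difference between these lists was not tested. Over the 6 comparisons, 24 of the 78 genes were called in none, 8 in 1, 20 in 2, 19 in 3 and 7 in 4. The comparisons reuse the same 8 libraries, and this count was not made over all genes, so it has no background.

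Mitochondrial ribosome proteins that have other symbols were looked at beside these genes. *Dap3*, a GTP-binding protein of the small subunit also known for a role in apoptosis, held 1260.4 and 1569.6 in the Effector libraries, 1278 and 1180.3 in those of Acute-2d, 1197 and 1189.9 in those of Acute-7d and 632 and 501 in those of T_Dysf. Both T_Dysf libraries were below all others, with a log2 fold change of -1.08 ± 0.16 (SE, adjusted p = 0.0229) against Acute-7d and -1.32 ± 0.16 (SE, adjusted p = 0.0111) against Effector. *Chchd1*, a small subunit protein, was higher in Effector than in Acute-7d by 0.92 ± 0.087 (SE, adjusted p = 0.0119) and lower in T_Dysf than in Effector, at -0.61 ± 0.087 (SE, adjusted p = 0.0165). *Ptcd3*, *Aurkaip1* and *Gadd45gip1* were called in none of the comparisons of T_Dysf or Effector with another condition. Of the 78 genes, 10 had both T_Dysf libraries below all 6 others, as *Dap3* did, and they were singled out after their values were seen. This is 12.8% of the 78, below the 16.7% of genes with a mean of at least 50 that met the same rule. They were *Mrpl15*, *Mrpl23*, *Mrpl38*, *Mrps2*, *Mrps5*, *Mrps18b*, *Mrps27*, *Mrps28*, *Mrps30* and *Mrps35*. Of these, *Mrps5*, *Mrps30* and *Mrps35* were called in no comparison.

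To see whether T_Dysf and Effector differed from rested cells in the same genes, T_Dysf against Acute-7d was set beside Effector against Acute-2d. Their fold changes share no library. The spread behind the calls was estimated from all 8 libraries for both, so the calls of the 2 comparisons are not independent. In 55 of the 78 genes both log2 fold changes were above 0, and in 6 both were below. Both were above 0 in 33.3% of the 12028 genes with a mean of at least 50. Of the 13 genes higher in T_Dysf and the 39 higher in Effector, 10 were shared, 76.9% of the former and 25.6% of the latter. Among the 12028 genes with a mean of at least 50, 350 were shared, 36.0% of the 971 higher in T_Dysf and 20.0% of the 1754 higher in Effector, and 50% of the 78 genes were called higher in Effector to begin with, against 14.6% of those genes. The 10 were *Mrpl10*, *Mrpl13*, *Mrpl39*, *Mrpl43*, *Mrpl54*, *Mrpl58*, *Mrps7*, *Mrps11*, *Mrps21* and *Mrps23*. Over the 78 genes, which are not independent replicates, Pearson's r was 0.42 and Spearman's rho 0.34, against 0.31 and 0.36 for those 12028. For T_Dysf against Acute-2d beside Effector against Acute-7d, 54 were above 0 in both, against 32.6% of the same 12028 genes. In that pair 7 were called higher in both, 77.8% of 9 and 15.9% of 44, against 29.0% of 1190 and 20.5% of 1686 among the 12028. *Mrps28* showed how single genes could differ, with -0.81 in T_Dysf against Acute-7d and 0.99 in Effector against Acute-2d on the log2 scale.

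**Figure D4:**
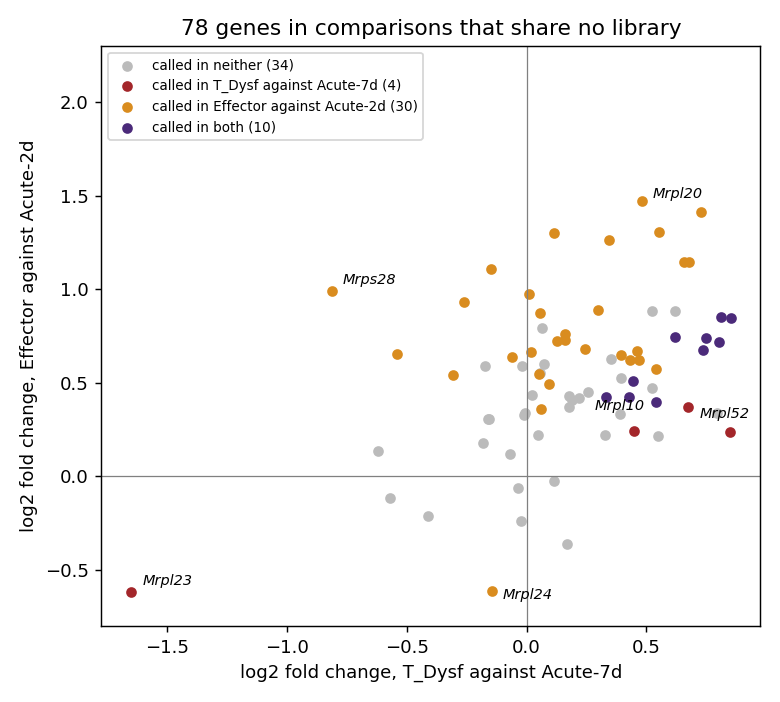
Each point is 1 of the 78 genes. The x axis is the log2 fold change of T_Dysf against Acute-7d and the y axis that of Effector against Acute-2d. The 2 fold changes have no library in common, while the calls rest on 1 spread estimated from all 8 libraries. Colours give where a gene was called, 10 in both, 4 in the former alone, 30 in the latter alone and 34 in neither; most points lie in the upper right, and *Mrpl23* lies far to the lower left.

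Nuclear genes of respiratory chain and ATP synthase subunits showed the same order of medians. Of 83 such genes, 12 were higher and 0 lower in T_Dysf than in Acute-7d (median 0.30), and 38 higher and 0 lower in Effector than in Acute-7d (median 0.57). The shares called were 14.5% and 45.8%, against 15.3% and 26.3% of genes with a mean of at least 50, so the former was at its background. Of 38 proteasome subunit genes, 3 were higher in T_Dysf than in Acute-7d (median 0.39) and 17 in Effector (median 0.78), or 7.89% and 44.7% against the same backgrounds. Cytosolic ribosomal protein genes differed in direction. Of 81 of these, 16 were lower and 0 higher in T_Dysf than in Acute-7d (median -0.54), and 14 were lower and 4 higher in Effector (median -0.39), or 19.8% and 22.2%. They made up 3.65% ± 0.51 of the total for Effector, 4.98% ± 0.28 for Acute-2d, 4.69% ± 0.042 for Acute-7d and 3.37% ± 0.26 for T_Dysf (SD, n = 2). The sign of the medians of these 3 lists and of the 78 genes held under each of the 3 other scalings. The difference between the lists was not tested.

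**Figure D5:**
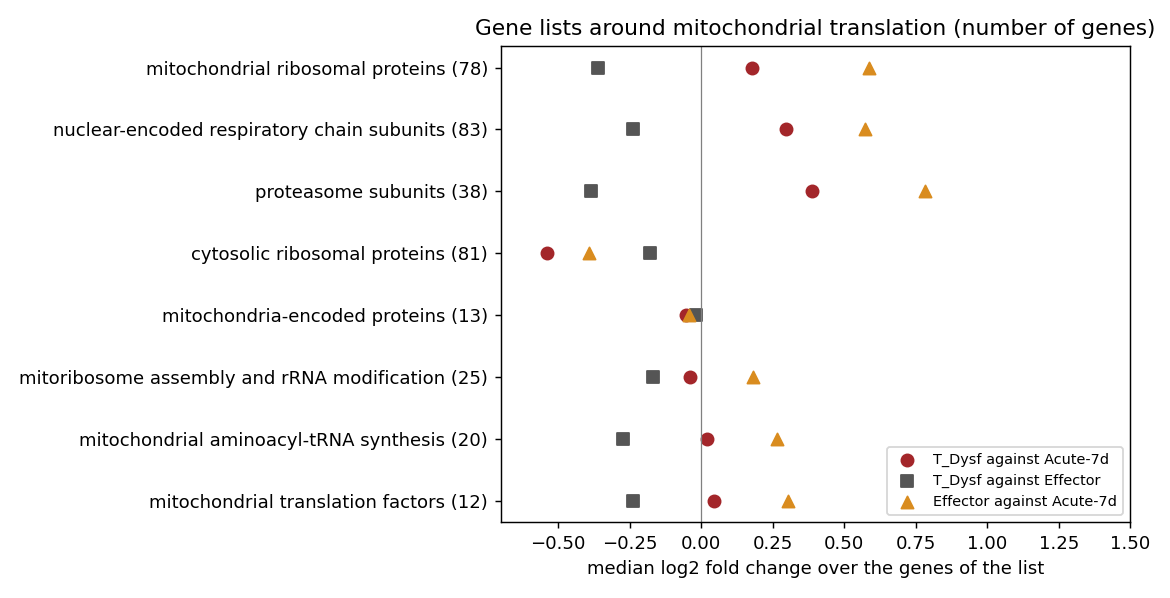
The x axis is the median log2 fold change over the genes of a list, and the y axis names the list with its number of genes; symbols mark 3 comparisons. The mitochondrial ribosomal proteins lie at 0.18 for T_Dysf against Acute-7d, -0.36 for T_Dysf against Effector and 0.59 for Effector against Acute-7d, near the respiratory chain subunits, while the cytosolic ribosomal proteins lie below 0 in all 3.

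The 13 proteins encoded in mitochondrial DNA, the products of this ribosome, did not show the order at the level of their messages. By limma 0 of 13 were called in any of the 6 comparisons, also at an unadjusted p under 0.05, and their medians ran between -0.07 and 0.02. At equal 75th percentiles the median of T_Dysf against Effector was 0.02 in place of -0.02. They made up 2.42% ± 0.34 of the total for Effector, 2.50% ± 0.50 for Acute-2d, 2.47% ± 0.20 for Acute-7d and 2.14% ± 0.092 for T_Dysf (SD, n = 2), which overlapped except between T_Dysf and Acute-7d. The libraries were selected for polyadenylated RNA, and how that captures mitochondrial messages was not tested.

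Among 9 regulators known to act on genes of mitochondrial proteins, every call of T_Dysf against another condition was lower. In T_Dysf 3 were lower and 0 higher than in Acute-7d, 2 and 0 than in Acute-2d, and 1 and 0 than in Effector. These are 33.3%, 22.2% and 11.1% of the 9, against 15.3%, 19.5% and 26.3% of genes with a mean of at least 50. In Effector 2 were higher and 1 lower than in either rested condition, 33.3% against 26.3% and 27.7%. *Myc*, a transcription factor that drives ribosome and mitochondrial biogenesis, held 5540.3 and 6009 in the Effector libraries, 15615 and 15287 in those of Acute-2d, 17721 and 11335 in those of Acute-7d and 4537 and 4228 in those of T_Dysf. The rested conditions were highest, and the log2 fold change was -1.69 ± 0.22 (SE, adjusted p = 0.0176) for T_Dysf against Acute-7d and -1.30 ± 0.22 (SE, adjusted p = 0.0269) for Effector against Acute-7d. *Pprc1*, a coactivator of the PGC-1 family, held 2613 and 2846 in the Effector libraries, 1123 and 982 in those of Acute-2d, 1516 and 1211 in those of Acute-7d and 567 and 633 in those of T_Dysf. It was highest in Effector and lowest in T_Dysf with no overlap, at -2.18 ± 0.14 (SE, adjusted p = 0.00323) between them. *Gabpb1*, a subunit of the factor that binds the ETS motif above, was higher in Effector than in Acute-7d by 0.94 ± 0.17 (SE, adjusted p = 0.0323), and *Ppargc1b* was lower in T_Dysf than in Acute-7d, at -1.21 ± 0.21 (SE, adjusted p = 0.037). *Nrf1*, *Gabpa*, *Esrra* and *Yy1* were called in no comparison, and *Ppargc1a* was under 5 normalized counts in every library.

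The label of CD8 T cells was checked on defining markers. Of 6 markers of CD8 T cells, *Cd8a*, *Cd8b1*, *Cd3d*, *Cd3e* and *Cd3g* had at least 6169 normalized counts in every library. *Cd5*, an inhibitory receptor of T cells, held 2678 and 4144 in the Effector libraries, 1650.3 and 1886 in those of Acute-2d, 1849 and 1809 in those of Acute-7d and 691 and 694 in those of T_Dysf. It was lowest in T_Dysf, and the log2 fold change was -1.40 ± 0.21 (SE, adjusted p = 0.026) against Acute-7d and -2.27 ± 0.21 (SE, adjusted p = 0.00724) against Effector. The other 5 markers had fold changes above 0 in both comparisons, with medians over all 6 of 0.81 and 0.999. Of the 6, 3 were called higher and 1 lower against Acute-7d, and 4 higher and 1 lower against Effector. These are 66.7% and 83.3%, against 15.3% and 26.3% of genes with a mean of at least 50. Of 2 NK cell markers, *Ncr1* was called lower in T_Dysf than in Acute-7d (limma, adjusted p = 0.0343), with 2.59 and 1.78 normalized counts, at or under the floor of 3 reads, against 30.1 and 105, and *Klrb1c* was called in no comparison. *Cd4* was at or under 13, and the B cell marker *Ms4a1* at or under 13. Of 5 B and plasma cell markers, 2 were higher by 2-fold or more in T_Dysf than in Acute-7d, *Jchain* with 236 and 275 normalized counts (at most 7.37 in the other 6 libraries) and *Sdc1* with 113 and 148 (at most 19.1 in the others). Their part in the results was not tested.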

How the data were processed

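RNA-Seq of P14 CD8 T cells was analysed from 1 table with 8 libraries in 4 conditions. Reads were mapped by the authors with STAR (mm10), assigned to RefSeq transcripts with Partek Flow, and scaled with the median-ratio size factors of DESeq2. The deposited values are a signal: estimated counts that the authors divided by the size factor of each library. They are not whole reads, so count models were not fitted. The worth of 1 read, read off the commonest small value in each library, gave a depth of 19381799 to 24856512 reads, so that the floor of 3 reads is 2.59 to 3.35 normalized counts, counting error only.

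limma 3.58.1 (R 4.3.3; lmFit and eBayes with trend) was fitted on log2(normalized count + 1) over all 24303 genes and 8 libraries, with 4 group means, no covariate and 4 residual degrees of freedom. Fold changes on this scale understate those of low genes. Tests were two-sided, and a gene was called where p adjusted by Benjamini and Hochberg, with every gene included, was under 0.05. Errors of fold changes are SE. No exact permutation test can pass 0.05 at 2 against 2. Genes were named where they changed by 2-fold or more, were among the 5 largest changes in a direction or the 5 smallest p in a comparison, were highest or lowest in level, or belonged to the structural groups described; others were named with a count. The genes and lists were chosen with earlier results of these data known. The procedure was tested on simulated data. Lengths came from GENCODE vM21 and positions and promoters from RefSeq (GRCm38.p6). Python 3.11.15, pandas 2.3.3 and matplotlib 3.10.9 were used for tables and plots.

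Alternatives were 3 other scalings, a mean filter of 50, a smaller and a larger pseudocount, a block on replicate number, a RESUB term, the 2 groups compared alone, and leaving out each replicate. Those added after seeing the data were a filter on the maximum, at 50 (named in the methods, though the table holds genes under it), protein-coding genes, reads of pseudogene entries added to the parent gene, and leaving out T_Dysf replicate 1 and Acute-7d replicate 1 together.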

Additional observations from a re-analysis of the deposited data

How the results depend on the processing

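The medians kept their sign under the alternatives run, while the numbers of genes called moved. Over all alternatives run, the median log2 fold change of the 78 genes stayed between 0.11 and 0.26 for T_Dysf against Acute-7d, 0.09 and 0.16 for T_Dysf against Acute-2d, -0.46 and -0.28 for T_Dysf against Effector, 0.47 and 0.67 for Effector against Acute-7d, and 0.45 and 0.62 for Effector against Acute-2d. Leaving aside Acute-7d against Acute-2d, where 0 was called throughout, 62 of 103 counts of genes called under an alternative stayed within 1.5 times the main count. With a term for RESUB libraries the counts were 2 for T_Dysf against Acute-7d, 7 for T_Dysf against Acute-2d, 0 for T_Dysf against Effector, 10 for Effector against Acute-7d, 0 for Effector against Acute-2d and 6 for any difference among the 4 conditions. With the 2 groups compared alone they were 7 for T_Dysf against Acute-2d, 1 for T_Dysf against Effector, and 0 for Effector against Acute-7d and against Acute-2d, where limma gave 63 and 54 genes at an unadjusted p under 0.05. Among genes with a mean, or with a maximum, of at least 50, T_Dysf against Effector gave 32 by either filter. Without T_Dysf replicate 1 and Acute-7d replicate 1 together, limma called 0 in each comparison of T_Dysf (with Acute-7d, with Acute-2d, with Effector) and 0 in Effector against Acute-7d, with 16, 16, 28 and 45 at an unadjusted p under 0.05. Leaving out 1 replicate at a time gave 2 to 5 for T_Dysf against Acute-7d, 3 to 7 for T_Dysf against Acute-2d, 2 to 22 for T_Dysf against Effector, 1 to 35 for Effector against Acute-7d, 6 to 29 for Effector against Acute-2d, 0 to 0 for Acute-7d against Acute-2d and 6 to 30 for any difference; the lone library is then assumed to vary like the other groups. Scaling to equal 75th percentiles shifted the log2 fold changes of all genes by -0.11 in Effector against Acute-7d. With the replicate number as a block, 8 genes were called in T_Dysf against Acute-7d, 12 against Acute-2d and 16 against Effector, and 35 and 31 in Effector against Acute-7d and Acute-2d. The numbers were not taken as pairs, since over 6 pairs of conditions the correlation of replicate differences across genes ran from -0.199 to 0.197, with 2 over 0.1. The fold changes that turned in sign were not called as reported. For *Mrpl14* leaving out 1 replicate gave -0.022 (T_Dysf replicate 2) to 0.40 (T_Dysf replicate 1) in T_Dysf against Effector, and -0.056 (Effector replicate 2) to 0.011 (Effector replicate 1) in Effector against Acute-7d. *Mrpl53* was at -0.20 in T_Dysf against Effector with the RESUB term. *Mrpl38* in Effector against Acute-7d was at -0.091 with equal 75th percentiles, -0.092 under quantile normalization and -0.019 with the RESUB term, and leaving out 1 replicate gave -0.16 (Effector replicate 2) to 0.20 (Effector replicate 1). The cause of these changes was not tested.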

Other observations

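Other genes of mitochondrial gene expression were mostly not called, and those that were lower in T_Dysf did not follow the order of the ribosomal proteins. *Polg*, the catalytic subunit of the mitochondrial DNA polymerase, had normalized counts of 1349 and 1471 in the Effector libraries, 1895 and 1939.5 in those of Acute-2d, 2136 and 2025 in those of Acute-7d and 635 and 541 in those of T_Dysf. T_Dysf was below all other conditions, with a log2 fold change of -1.83 ± 0.093 (SE, adjusted p = 0.00228) against Acute-7d and -1.26 ± 0.093 (SE, adjusted p = 0.00434) against Effector by limma. *Ears2*, the glutamyl-tRNA synthetase of mitochondria, had 223 and 233 in the Effector libraries, 264 and 313 in those of Acute-2d, 284 and 281 in those of Acute-7d and 111 and 116 in those of T_Dysf, and its log2 fold change was -1.31 ± 0.10 (SE, adjusted p = 0.00568) against Acute-7d. *Mars2*, the methionyl-tRNA synthetase, was at -0.79 ± 0.12 (SE, adjusted p = 0.0282). Of 20 genes of aminoacyl-tRNA synthesis, 2 were lower and 0 higher in T_Dysf than in Acute-7d, with a median of 0.02, and of 11 genes of mitochondrial DNA maintenance and transcription 1 was lower and 0 higher, with a median of -0.30. The shares called were 10% and 9.09%, against 9.21% of all genes and 15.3% of those with a mean of at least 50.

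Of 25 genes for assembly of the ribosome and modification of its RNA, 1 was higher and 1 lower in T_Dysf than in Acute-7d, and likewise in Effector than in Acute-7d. That is 8% in each, against 15.3% and 26.3% of genes with a mean of at least 50. *Mpv17l2*, an assembly factor of the inner membrane, was the gene called higher, with 0.51 ± 0.083 (SE, adjusted p = 0.0302) in T_Dysf and 0.49 ± 0.083 (SE, adjusted p = 0.0271) in Effector against Acute-7d. *Mettl17*, a factor for assembly of the small subunit, was the gene called lower, with -0.73 ± 0.10 (SE, adjusted p = 0.023) and -0.85 ± 0.10 (SE, adjusted p = 0.0168). Of 12 translation factors, 3 were higher by 2-fold or more in Effector than in Acute-7d, the elongation factor genes *Tsfm* (1.52) and *Gfm1* (1.15) and the cytochrome oxidase activator *Taco1* (1.29), and 0 were called between T_Dysf and Acute-7d by limma, with 2 at an unadjusted p under 0.05. The shares called were 25% and 0%, against 26.3% and 15.3% of genes with a mean of at least 50. Of all genes, 8.06% passed 2-fold in either direction in Effector against Acute-7d. *Lars2*, the leucyl-tRNA synthetase, and *mt-Atp8*, both singled out after their values were seen, were higher in T_Dysf replicate 1 than in replicate 2, with 6635 and 1842 and with 11586 and 2419 normalized counts.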
